A study of Mus musculus with 12 samples.

Results

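The hypoxia response and glycolysis genes described here are 38 named mouse genes, taken by symbol from a list, out of 37620 gene identifiers counted in the series. The list was chosen with earlier results of these data known. They fall into 5 genes of oxygen sensing, 14 glycolytic enzymes, 5 genes of glucose and lactate handling and 14 other hypoxia targets. RNA was measured in neural stem cells taken from C57BL/6J embryos at E14.5, and all cultures were grown in a proliferation medium with FGF-2 and EGF. Cells of E12-/- embryos (E12KO) and of E47-/- embryos (E47KO) each had wild-type litter mates as controls, labelled E12+/+ (E12wt) and E47+/+ (E47wt). Each of these 4 groups has 3 libraries. The gene Tcf3 encodes both as splice forms, transcription factors of the basic helix-loop-helix class. Nothing in the labels states that libraries of 1 group are from different embryos, so p-values here measure only the spread between these libraries, which may be technical. Xist, the transcript of the inactive X chromosome, was high in E47wt replicates 1 and 3 and low in replicate 2. The libraries of that group are thus not all repeats of the same cells. In bulk samples such as these, fewer cells of a type and less RNA per cell cannot be told apart.

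Cells sense oxygen through prolyl hydroxylases, encoded by the Egln genes, which use oxygen to mark the hypoxia-inducible factors Hif1a and Epas1 for destruction. When oxygen is short the marked form is not made, the factors persist as protein, and they switch on genes for glucose uptake, glycolysis, lactate export, blood vessel growth and removal of mitochondria. Neural stem cells rely strongly on glycolysis even when oxygen is present. Since Hif1a is controlled mostly as a protein, its RNA level says little about its activity.

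The libraries held 34515297 to 56835783 reads on genes. Levels are given as counts per 1e6 gene reads (CPM), scaled over all 12 libraries, and 3 reads corresponded to 0.0528 to 0.0869 CPM. Stem cell markers were high in every library, with Fabp7 and Ptprz1 leading a list of 10 that summed to 9554 to 11310 CPM. The 6 microglial markers summed to 2.91 to 9.67 CPM, the 8 endothelial and pericyte markers to 3.05 to 7.48 CPM and the 6 erythroid markers to 0.463 to 1.5 CPM; none of these lists had a gene at 0 in all libraries, and 2, 1 and 2 of their genes stayed under 3 reads in every library. The 8 mesenchyme and meninges markers summed to 8.54 to 11.7 CPM in E12wt and 2.16 to 3.78 CPM in E12KO, and to 2.47 to 16.2 CPM in E47wt; the part of these cells in the results below was not tested. On the first principal component of all genes, 2 libraries stood apart, E12wt replicate 3 at −30.58 and E47KO replicate 2 at 73.63, against −15.94 to 14.73 for the other 10. Results that rest on either are given with and without it.

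The enzymes were the most abundant of the 4 roles. The 14 of them together took 0.472 to 0.643% of gene reads, and the other 3 roles 0.0388 to 0.0470% (oxygen sensing), 0.00545 to 0.0139% (glucose and lactate handling) and 0.0589 to 0.0944% (other hypoxia targets). Over the 12 libraries the highest level was a median of 1.44 times the lowest for the enzymes, 2.12 times for oxygen sensing, 2.53 times for glucose and lactate handling and 3.14 times for the other targets. The order above the enzymes rested on the libraries that stood apart. Without E12wt replicate 3 the medians were 1.42 for the enzymes, 1.62 for oxygen sensing, 2.08 for glucose and lactate handling and 2.01 for the other targets, and without E47KO replicate 2 as well they lay between 1.40, for the enzymes, and 1.56, for glucose and lactate handling. Of the 38 genes, 37 passed the filter on low counts over all 12 libraries. Car9, a carbonic anhydrase at the cell surface, did not, with 0 to 0.122 CPM, which is 0 to 5 reads per library.

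No listed gene was called in any comparison. In E12KO against E12wt, 0 of 36 tested genes passed (edgeR's quasi-likelihood test, Benjamini-Hochberg-adjusted p under 0.05), where 0.0407% of all 14755 genes did. In E47KO against E47wt it was 0 of 36, with 0.0134% of all genes. Between the wild types it was again 0 of 36, with 0.0% of all genes, and for the difference between the knockout effects 0 of 37, with 0.0%. DESeq2 gave an adjusted p to 35, 35, 35 and 36 listed genes in the 4 comparisons, and to P4ha2 in none of them. It called 0 listed genes in each, where it called 0.515%, 0.0888%, 0.047% and 0.00655% of all genes. The authors' deposited tables give an adjusted p for 35 of the genes in each line, none under 0.05, and the smallest was 0.210 for Ankrd37 in the E12 line. For P4ha2 the authors' deposited table of the E12 line gives a log2 fold change of −3.40 and no p. On simulated counts, the test for the E12 line found 60% of genes changed 1.5-fold and 89.5% of those changed 2-fold. That for the E47 line found 0.5% and 41%, and that between the wild types 52% and 83%. For the difference between the knockout effects it was 0% and 40%. The simulation changed 200 genes drawn at random and had no library that stood apart. These shares are thus no measure of how often a change in the listed genes would be found.

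In E12wt replicate 3 the listed genes stood apart from the rest of the genes. E12wt replicate 3 was the highest of the 3 E12wt libraries for 33 of the 37 genes that passed the filter, and for all 14 enzymes, where it was the highest for 40.1% of all 15277 genes. E12wt replicate 1 was the lowest of the 3 for 25 of the 37 genes and 11 of the 14 enzymes (30.2% of all genes). Among all 12 libraries replicate 3 of E12wt was the highest for 22 of 37 (11.6% of all genes). By the difference between this library and the mean of E12wt replicates 1 and 2 on the log2(CPM + 0.5) scale, 4 of the 10 genes that lay furthest above were listed genes, as were 8 of the first 50 and 13 of the first 200. The median of this difference was 0.36 over the 37 genes, 0.27 for the enzymes and 0.36 for the other hypoxia targets, against 0.00 over all genes. The check of this library was part of the rule for the gene set, so its height is a description with no test.

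**Figure D1:**
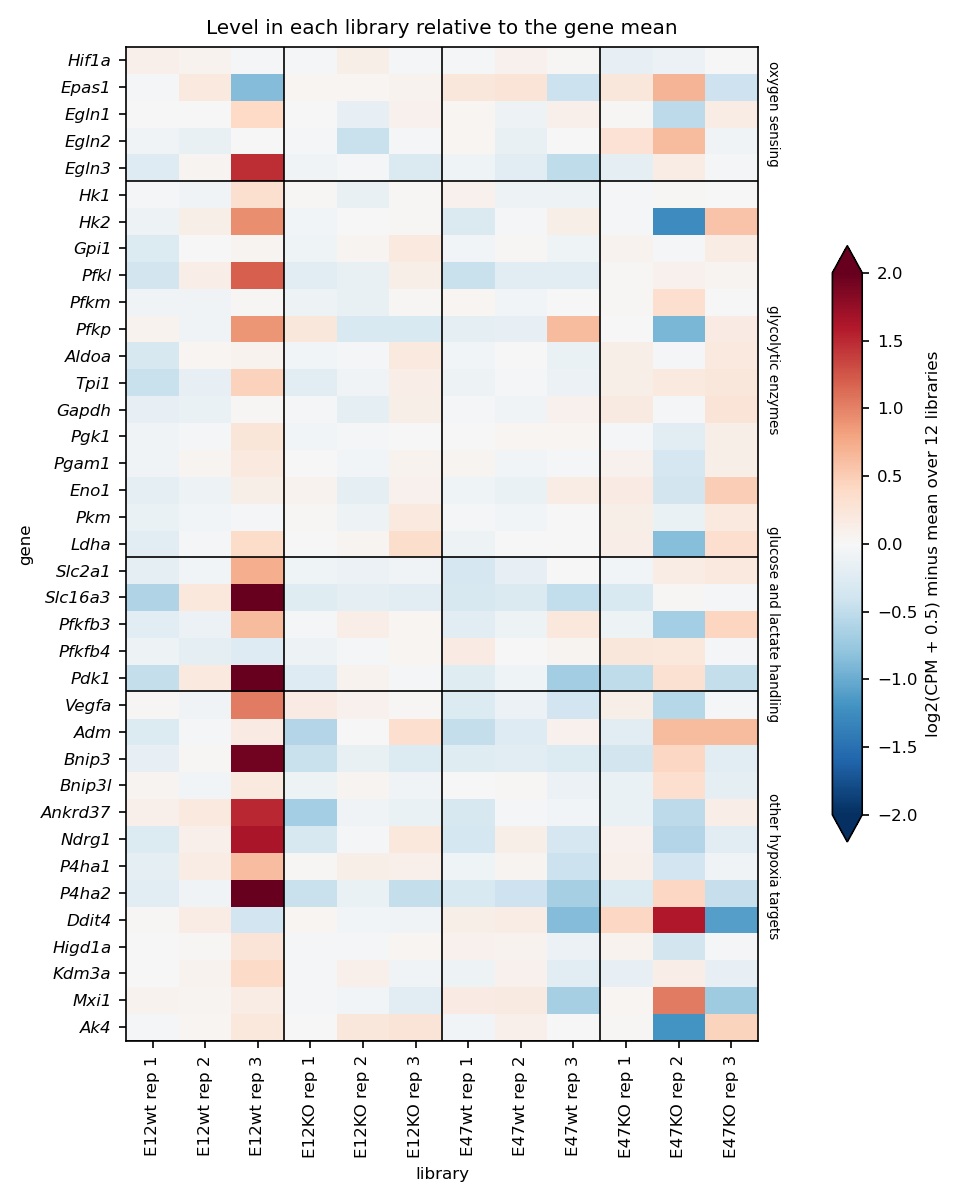
Level of the 37 genes that passed the filter in each of the 12 libraries (columns, grouped by genotype), as log2(CPM + 0.5) minus the gene's mean over the 12 libraries, with colours ending at −2 and 2. Genes are ordered by role, with lines between roles. The column of E12wt replicate 3 is the highest of 12 for 22 genes, while E47KO replicate 2 holds the highest level for 7 and the lowest for 12.

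The 4 genes among those 10 were P4ha2, Slc16a3, Pdk1 and Bnip3. Their promoters are shown because hypoxia-inducible factors bind a short core, and the letters of that core can be looked for in genes that were high together. The 250 bases before the RefSeq start site (GRCm38.p6) are printed 5′ to 3′ on the gene's strand, and capitals mark the cores ACGTG and GCGTG on either strand, so that CACGT and CACGC are the same cores on the other strand.
P4ha2 (chr11:54100674-54100923, plus strand): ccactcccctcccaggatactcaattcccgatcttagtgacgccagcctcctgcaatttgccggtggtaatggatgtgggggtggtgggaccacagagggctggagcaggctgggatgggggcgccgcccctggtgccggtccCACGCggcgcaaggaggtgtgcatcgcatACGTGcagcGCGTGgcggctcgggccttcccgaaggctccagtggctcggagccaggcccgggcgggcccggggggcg
Slc16a3 (chr11:120948817-120949066, plus strand): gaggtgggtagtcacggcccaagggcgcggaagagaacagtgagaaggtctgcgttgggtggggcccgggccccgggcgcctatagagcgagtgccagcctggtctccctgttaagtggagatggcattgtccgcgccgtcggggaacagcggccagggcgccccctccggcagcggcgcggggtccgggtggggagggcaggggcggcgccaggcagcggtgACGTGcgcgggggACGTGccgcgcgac
Pdk1 (chr2:71872974-71873223, plus strand): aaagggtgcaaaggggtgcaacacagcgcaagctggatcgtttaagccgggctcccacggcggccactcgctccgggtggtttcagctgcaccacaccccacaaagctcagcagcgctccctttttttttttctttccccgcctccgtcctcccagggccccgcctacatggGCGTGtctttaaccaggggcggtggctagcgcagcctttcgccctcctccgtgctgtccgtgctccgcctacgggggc
Bnip3 (chr7:138909507-138909756, minus strand): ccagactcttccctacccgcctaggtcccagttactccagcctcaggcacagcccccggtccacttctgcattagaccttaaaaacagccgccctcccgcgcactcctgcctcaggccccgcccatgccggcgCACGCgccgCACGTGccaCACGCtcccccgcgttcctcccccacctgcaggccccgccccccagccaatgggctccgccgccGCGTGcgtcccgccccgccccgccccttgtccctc
The Bnip3 window holds 5 matches, of which 2 are the same CACGTG read on both strands, P4ha2 holds 3, Slc16a3 2 and Pdk1 1; Pdk1 has a second RefSeq start with none.

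Of the 38 genes, 35 matched a RefSeq promoter; Epas1, Bnip3l and Ndrg1 did not. At least 1 core stood in the window of 33 of the 35, or 94.3%, against 41.5% of all 27025 genes with a promoter of the same length and 60.8% of the 10824 that also passed the count filter. It was 12 of 14 enzymes (85.7%) and 12 of 12 other hypoxia targets. ACGTG alone stood in 23 of 35 listed genes (65.7%), 7 of 14 enzymes and 9 of 12 other targets. It stood in 18.5% of all genes and in 24.6% of those that passed the count filter. Some genes have several promoters. Counted per promoter, either core stood in 80.4% for listed genes, 38.6% for all genes and 54.6% for genes that passed the filter. Gpi1 and Tpi1 had neither core. A match is a description of letters and not a binding site, and the genes that were flat in E12wt replicate 3 hold such cores as well. The genes were listed as hypoxia and glycolysis genes, so a high share of cores can come from that choice. The part of these cores in the height of E12wt replicate 3 was not tested.

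Hif1a and Epas1, the oxygen-labile factors, were not among the genes high in that library. Hif1a (ENSMUSG00000021109) was at 269, 265 and 248 CPM in E12wt, 245, 272 and 246 in E12KO, 244, 266 and 256 in E47wt and 225, 231 and 253 in E47KO. All 4 groups overlapped, and the highest library was 1.21 times the lowest, the narrowest spread of the 38 genes. Its log2 fold change was −0.03 ± 0.07 (SE) in E12KO and −0.13 ± 0.10 in E47KO (edgeR, BH-adjusted p = 0.895 and 0.971). Epas1, the factor typical of vessels and glia, was at 11.5, 13.5 and 6.27 CPM in E12wt, 12.1, 12.2 and 12.4 in E12KO, 13.9, 14.2 and 8.67 in E47wt and 13.9, 19.1 and 8.68 in E47KO. It was lowest in E12wt replicate 3, followed by replicate 3 of E47wt and of E47KO, and highest in E47KO replicate 2. Per transcript length Hif1a had a mean of 53.3 RPKM (CPM per kilobase of transcript) and Epas1 2.21.

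The prolyl hydroxylases differed in how they varied. Egln1, the main oxygen sensor, was at 111, 110 and 146 CPM in E12wt, 111, 98.8 and 119 in E12KO, 115, 104 and 119 in E47wt and 114, 77.5 and 124 in E47KO. Egln2 was at 26.4, 25.1 and 27.7 CPM in E12wt, 27.4, 20.4 and 27.3 in E12KO, 28.5, 25.0 and 27.8 in E47wt and 34.1, 43.3 and 26.6 in E47KO. E47KO replicate 2 had the lowest Egln1 and the highest Egln2 of the 12, E12wt replicate 3 the highest Egln1 and E12KO replicate 2 the lowest Egln2. Egln3, the hydroxylase that hypoxia induces most, was at 12.4, 15.5 and 42.4 CPM in E12wt, 14.3, 14.6 and 12.1 in E12KO, 14.0, 12.8 and 10.3 in E47wt and 12.9, 16.7 and 14.7 in E47KO. Its level in E12wt replicate 3 was 2.54 times the next highest of the 12. Mean levels per length were 31.3 RPKM for Egln1, 13.4 for Egln2 and 6.03 for Egln3. No hydroxylase came near the threshold; Egln3 had a log2 fold change of −0.77 ± 0.40 in E12KO (edgeR, BH-adjusted p = 0.577), and −0.03 ± 0.13 without E12wt replicate 3 (adjusted p = 0.989).

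Among the abundant enzymes of the lower pathway, Gapdh, Pgk1 and Pkm varied little and Eno1 and Ldha more. Gapdh, which oxidises glyceraldehyde phosphate, was at 908, 920 and 1035 CPM in E12wt, 988, 887 and 1104 in E12KO, 983, 965 and 1079 in E47wt and 1147, 982 and 1214 in E47KO. Pgk1, the first enzyme of the pathway to make ATP, was at 742, 768 and 922 CPM in E12wt, 749, 755 and 780 in E12KO, 770, 796 and 800 in E47wt and 766, 662 and 846 in E47KO. Pkm, pyruvate kinase, was at 955, 1014 and 1034 CPM in E12wt, 1067, 985 and 1203 in E12KO, 1031, 1014 and 1059 in E47wt and 1136, 955 and 1211 in E47KO. For each of the 3 the groups overlapped in both lines. Log2 fold changes in E12KO were 0.06 ± 0.09 for Gapdh, −0.09 ± 0.08 for Pgk1 and 0.12 ± 0.08 for Pkm, and in E47KO 0.13 ± 0.11, −0.07 ± 0.11 and 0.07 ± 0.11 (edgeR, BH-adjusted p from 0.646 to 0.971). Processed copies limit these levels: 82.5% of the 50-base windows of Gapdh, 72.2% of Eno1, 68.0% of Pgk1, 62.4% of Bnip3 and 34.4% of Pkm also occur in other genes, and reads that map to several places are left out of the counts.

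Eno1, enolase, was at 701, 740 and 856 CPM in E12wt, 830, 697 and 838 in E12KO, 746, 721 and 876 in E47wt and 888, 614 and 1117 in E47KO. Ldha, which turns pyruvate into lactate, was at 446, 503 and 660 CPM in E12wt, 514, 532 and 655 in E12KO, 478, 511 and 510 in E47wt and 562, 284 and 646 in E47KO. E47KO replicate 2 was the lowest of all 12 for both, and the highest level was 1.82 times the lowest for Eno1 and 2.32 times for Ldha. Tpi1, triose phosphate isomerase, was at 107, 129 and 200 CPM in E12wt, 125, 139 and 159 in E12KO, 136, 143 and 133 in E47wt and 157, 167 and 171 in E47KO. Every E47KO library lay above every E47wt library.

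Among the enzymes of the upper, rate-setting steps were those with the widest ranges. Hk2, the inducible hexokinase, was at 23.2, 27.0 and 47.8 CPM in E12wt, 23.9, 25.1 and 25.2 in E12KO, 20.3, 24.3 and 27.2 in E47wt and 24.6, 10.1 and 37.2 in E47KO. It thus spanned 4.71 times between E12wt replicate 3 and E47KO replicate 2, the widest range among the enzymes, whereas Hk1, the constitutive form, had a log2 range of 0.47. Pfkl, the liver-type phosphofructokinase subunit, was at 20.7, 29.5 and 62.2 CPM in E12wt, 23.1, 24.3 and 29.4 in E12KO, 19.7, 23.2 and 23.3 in E47wt and 27.3, 28.5 and 27.9 in E47KO. Pfkp, the platelet type, was at 8.30, 7.50 and 15 CPM in E12wt, 9.33, 6.28 and 6.30 in E12KO, 6.83, 7.02 and 12.5 in E47wt and 7.81, 3.94 and 8.95 in E47KO. E12wt replicate 3 was the highest of the 12 for Hk2, Pfkl and Pfkp, but not for the muscle-type subunit Pfkm, which ranged from 73.3 to 103 CPM with its highest level in E47KO replicate 2. Per length, Pfkm was at 28.3 RPKM, Pfkl at 7.58 and Pfkp at 2.01. The 4 remaining enzymes, Hk1, Gpi1, Aldoa and Pgam1, had log2 ranges of 0.46 to 0.53.

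Genes of glucose and lactate handling held the largest excess in E12wt replicate 3, with a median of 0.85 on the log2 scale over the 5. Pdk1, the kinase that shuts pyruvate out of mitochondria, was at 7.46, 12.2 and 51.0 CPM in E12wt, 8.71, 11.1 and 10.3 in E12KO, 8.82, 9.91 and 6.33 in E47wt and 7.31, 13.2 and 7.46 in E47KO. The third E12wt library stood at 3.87 times the next highest of the 12, while the other 11 spanned 6.33 to 13.2 CPM. Slc16a3, the lactate exporter MCT4, was nearly silent elsewhere, at 0.0217, 0.415 and 3.89 CPM in E12wt, 0.174, 0.200 and 0.190 in E12KO, 0.136, 0.150 and 0.0639 in E47wt and 0.144, 0.305 and 0.270 in E47KO. That is 168 reads in E12wt replicate 3 and 1 read in replicate 1; Slc16a3, like P4ha2 and Ak4 below, was chosen for its values. Slc2a1, the main glucose transporter, was at 15.9, 17.5 and 30.4 CPM in E12wt, 17.2, 16.7 and 17.3 in E12KO, 14.3, 16.2 and 18.1 in E47wt and 17.5, 20.2 and 20.8 in E47KO.

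The bifunctional enzymes that set fructose 2,6-bisphosphate did not vary together. Pfkfb3 was at 28.2, 30.0 and 50.9 CPM in E12wt, 31.7, 35.7 and 33.7 in E12KO, 28.2, 30.4 and 37.8 in E47wt and 30.5, 20.1 and 44.0 in E47KO. Pfkfb4 was at 2.86, 2.69 and 2.54 CPM in E12wt, 2.88, 3.05 and 3.23 in E12KO, 3.56, 3.15 and 3.26 in E47wt and 3.74, 3.71 and 3.04 in E47KO. Pfkfb4 was thus lowest of all 12 in the library where Pfkfb3 was highest, but by little. Its difference from the mean of E12wt replicates 1 and 2 was −0.10 on the log2 scale, against 0.80 for Pfkfb3.

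**Figure D2:**
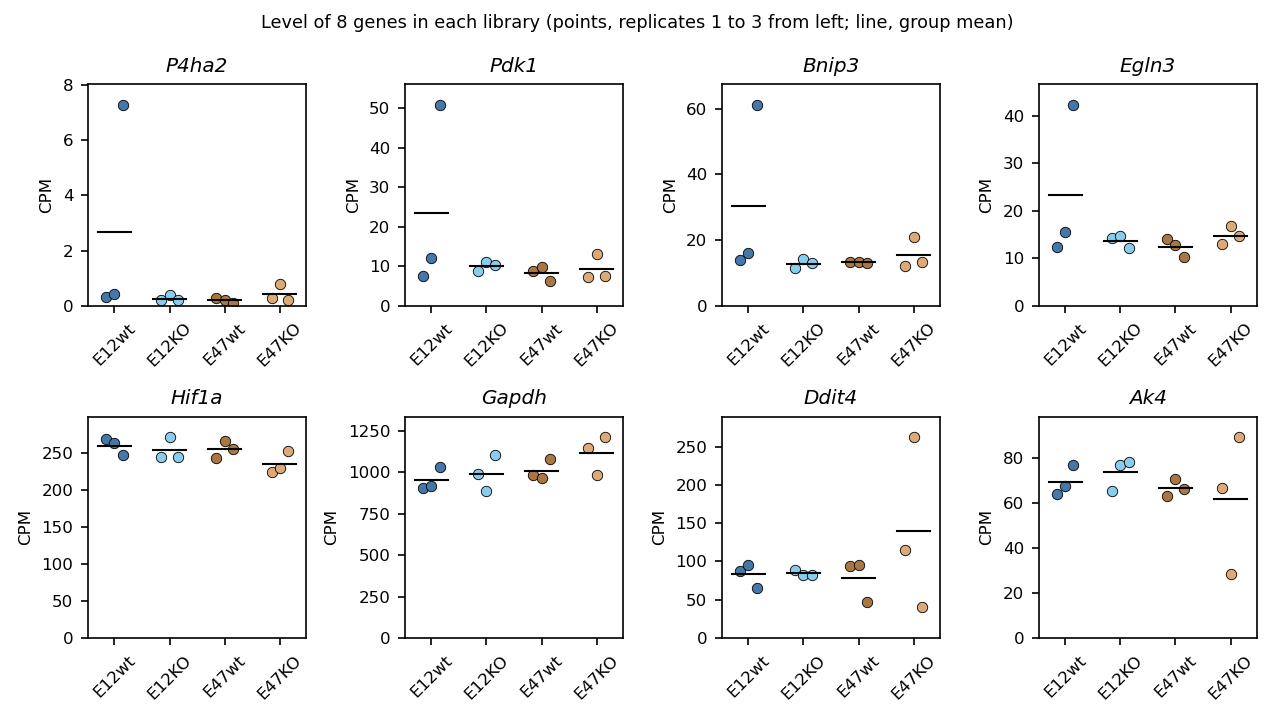
Level of 8 genes in every library, in CPM on axes that start at 0, by group, with replicates 1 to 3 from left to right and a line at the group mean. P4ha2, Pdk1, Bnip3 and Egln3 are highest in E12wt replicate 3; Hif1a and Gapdh are nearly flat; Ddit4 is highest and Ak4 lowest in E47KO replicate 2.

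E12wt replicate 3 was the highest of the 3 E12wt libraries for 12 of 13 other hypoxia targets (40.1% of all genes), with Ddit4 the exception. P4ha2 (ENSMUSG00000018906), a prolyl hydroxylase subunit for collagen, was at 0.325, 0.415 and 7.28 CPM in E12wt, 0.198, 0.375 and 0.190 in E12KO, 0.272, 0.214 and 0.107 in E47wt and 0.288, 0.776 and 0.198 in E47KO. It had the largest excess of all 15277 genes in E12wt replicate 3, with 315 reads there and as few as 5 in another library. Bnip3 (ENSMUSG00000078566), which marks mitochondria for removal, was at 14.1, 16.1 and 61.3 CPM in E12wt, 11.4, 14.1 and 12.9 in E12KO, 13.3, 13.4 and 13.0 in E47wt and 12.1, 21.1 and 13.4 in E47KO. Its relative Bnip3l did not share the height, with 142, 133 and 157 CPM in E12wt and 120 to 174 CPM in the 9 other libraries.

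Vegfa, the vessel growth factor, was at 38.2, 35.7 and 77.8 CPM in E12wt, 42.1, 39.8 and 38.3 in E12KO, 31.0, 34.4 and 28.5 in E47wt and 40.7, 25.0 and 36.8 in E47KO. Ankrd37, a small ankyrin repeat protein induced by Hif1a, was at 1.82, 1.95 and 5.64 CPM in E12wt, 0.843, 1.55 and 1.47 in E12KO, 1.22, 1.61 and 1.58 in E47wt and 1.46, 0.998 and 1.86 in E47KO. Ndrg1, a stress-responsive gene, was at 1.91, 2.64 and 8.53 CPM in E12wt, 1.84, 2.35 and 2.90 in E12KO, 1.80, 2.65 and 1.81 in E47wt and 2.59, 1.44 and 2.00 in E47KO. In all 3 genes the third E12wt library was the highest of the 12, and E47KO replicate 2 was the lowest for Vegfa and Ndrg1.

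Ddit4, an inhibitor of mTORC1 that is also induced by other stresses, went the other way. It was at 87.9, 95.9 and 65.9 CPM in E12wt, 88.5, 82.6 and 81.9 in E12KO, 93.7, 95.6 and 47.1 in E47wt and 115, 263 and 39.8 in E47KO. Mxi1, a Myc antagonist, was at 56.5, 56.0 and 59.4 CPM in E12wt, 52.4, 51.6 and 46.2 in E12KO, 60.1, 60.7 and 33.9 in E47wt and 55.0, 111 and 32.7 in E47KO. Both were highest in E47KO replicate 2 and lowest in replicate 3 of E47KO and of E47wt. The mitochondrial adenylate kinase Ak4 was at 66.9, 28.5 and 89.5 CPM in E47KO and 63.4 to 78.5 CPM in the other 9 libraries. The remaining targets Adm, P4ha1, Higd1a and Kdm3a had log2 ranges of 0.60 to 1.22.

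In E12KO against E12wt, 26 of the 36 tested genes had a log2 fold change below 0 and the median was −0.10, against 0.00 over all genes. By role the median was −0.07 for oxygen sensing, −0.04 for the enzymes, −0.21 for glucose and lactate handling and −0.16 for the other targets, of which 11 of 13 lay below 0. At an unadjusted p under 0.05 stood 4 genes, all lower, where 4.67% of all genes were; 0 were higher, against 4.29%. These were P4ha2 (−3.37 ± 1.20), Ankrd37 (−1.28 ± 0.46), Bnip3 (−1.24 ± 0.50) and Mxi1 (−0.19 ± 0.07), with edgeR BH-adjusted p of 0.523, 0.523, 0.534 and 0.529. Every knockout library lay below every wild-type library for Ankrd37 and Mxi1 (6.95% of all genes) and above for Pfkfb4 (6.77%).

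Cell type markers also shifted in the same comparison, but only mesenchyme and meninges markers were called. Of the markers tested, 7 of 8 of neurons (median log2 fold change −0.38) and 7 of 7 of the oligodendrocyte lineage (−0.60) lay below 0. Of astrocytes, 6 of 8 lay above 0 (0.36). Of 6 mesenchyme and meninges markers 3 were called lower (edgeR, BH-adjusted p under 0.05), where 0.0407% of all genes were called in either direction. Without E12wt replicate 3 these medians were −0.33, −0.27 and 0.18, with 8 of 8 neuron markers and 4 of 7 oligodendrocyte markers below 0, and 4 mesenchyme markers were called lower. The part of these cells in the fold changes of the listed genes was not tested.

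Without E12wt replicate 3 the fold changes of the listed genes were different. The median of the 36 was 0.01, 16 lay below 0, and 11 of the 14 enzymes lay above 0 with a median of 0.07. No gene was then lower at an unadjusted p under 0.05 (3.18% of all genes), and Tpi1, Ldha and Pfkfb3 were higher (3.16%), each by 0.20 to 0.25 on the log2 scale and with edgeR BH-adjusted p of 0.758 to 0.785. P4ha2 was then at −0.54 ± 0.42, Bnip3 at −0.24 ± 0.12, Ankrd37 at −0.56 ± 0.27, Pdk1 at 0.03 ± 0.20 (from −1.22 ± 0.60) and Mxi1 at −0.18 ± 0.08.

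**Figure D3:**
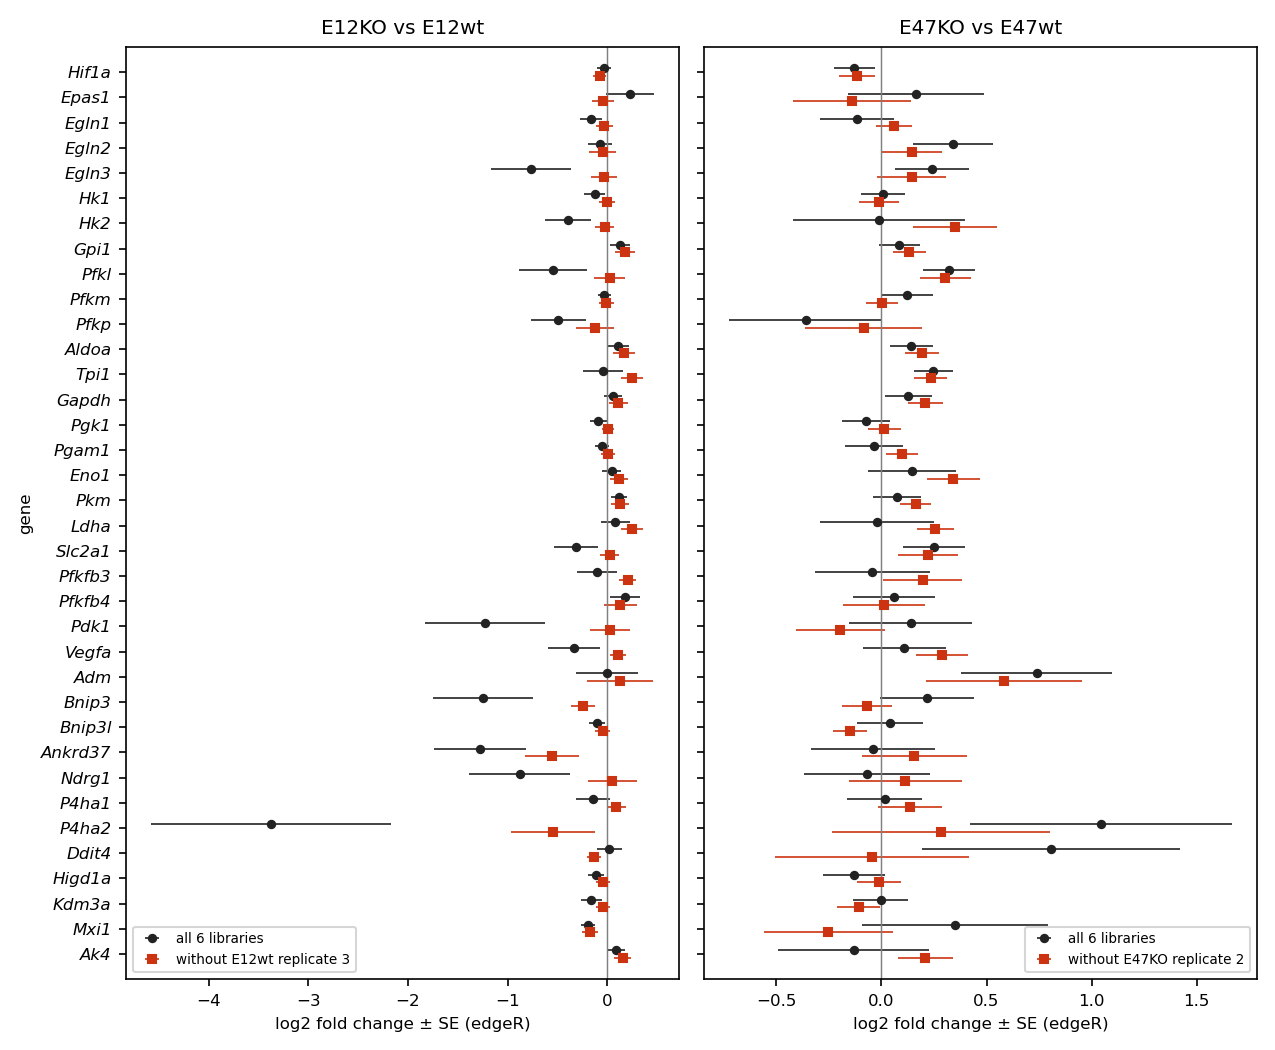
Log2 fold changes with standard errors (edgeR) of the 36 tested genes in E12KO against E12wt (left) and in E47KO against E47wt (right), with all 6 libraries (black circles) and without the library that stood apart (red squares). The axes of the panels differ in range. On the left, P4ha2, Bnip3, Ankrd37, Pdk1, Ndrg1 and Egln3 move towards 0 without E12wt replicate 3; on the right, Ddit4 goes from 0.81 to −0.04 without E47KO replicate 2.

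In E47KO against E47wt, 23 of 36 genes lay above 0 and the median was 0.08, against −0.01 over all genes. The enzymes had a median of 0.08 and the other targets of 0.04. Pfkl (0.32 ± 0.12) and Tpi1 (0.25 ± 0.09) were higher at an unadjusted p under 0.05, as 1.13% of all genes were, and 0 genes were lower (1.06%); the edgeR BH-adjusted p was 0.971 for both. Their groups did not overlap, a pattern that 4.74% of all genes showed in this direction, and 0 listed genes were lower without overlap (3.07%).

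Without E47KO replicate 2, 12 of the 14 enzymes lay above 0 with a median of 0.18. Then 6 enzymes were higher at an unadjusted p under 0.05 (1.4% of all genes): Tpi1, Gapdh, Ldha, Aldoa, Pfkl and Eno1, by 0.19 to 0.34 on the log2 scale. No listed gene was lower (1.95%). All had an edgeR BH-adjusted p of 1.00 after rounding, and none was called. Ddit4 went from 0.81 ± 0.62 to −0.04 ± 0.46 and Mxi1 from 0.35 ± 0.44 to −0.25 ± 0.31. Sex also moved with these groups, since Xist, the transcript of the inactive X chromosome, was high in E47wt replicates 1 and 3 and in all E12 libraries, and low in E47wt replicate 2 and all E47KO libraries. With sex as a term the median over the 36 genes was 0.02 and the enzymes' median was 0.07. That fit rests on E47wt replicate 2 as the only wild-type library of the line with low Xist. Sex and knockout can thus hardly be told apart here.

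The wild types of both lines, which carry no knockout, were set against each other. Xist was low in E47wt replicate 2 and high in the other libraries of both groups, so sex was not balanced between them. In E47wt against E12wt, 27 of 36 genes lay below 0 with a median of −0.11, among them all 13 other hypoxia targets, with a median of −0.24. P4ha2 (−3.76 ± 1.29), Ankrd37 (−1.09 ± 0.44) and Vegfa (−0.69 ± 0.28) were lower at an unadjusted p under 0.05, as were 1.77% of all genes, and 0 were higher (2.05%); all edgeR BH-adjusted p were 1.00. Vegfa, Bnip3, Ankrd37 and P4ha2 were lower without overlap (4.51%) and Pfkfb4 was higher (4.93%). Without E12wt replicate 3 the median was −0.02, 11 of 14 enzymes lay above 0 and 12 of 13 other targets stayed below 0, with a median of −0.13; 0 genes were at an unadjusted p under 0.05 (1.65% of all genes higher and 1.46% lower). P4ha2 was then at −0.93 ± 0.47, Ankrd37 at −0.36 ± 0.22 and Vegfa at −0.25 ± 0.11.

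The knockout effects of the 2 lines were not shown to differ for any listed gene. Sex moved with this difference as well, since Xist was high in all E12 libraries but low in E47KO and in E47wt replicate 2. The effect in E47KO minus that in E12KO had a median of 0.16 over 37 genes, 29 of them above 0, against 0.01 over all genes. P4ha2 (4.42 ± 1.60), Slc16a3 (3.93 ± 1.70) and Bnip3 (1.47 ± 0.64) lay above 0 at an unadjusted p under 0.05 (1.2% of all genes) and 0 lay below (1.83%); the edgeR BH-adjusted p was 0.932 for each. Without E12wt replicate 3 the median was 0.02, 22 of 37 lay above 0 and 0 genes were at an unadjusted p under 0.05 (0.825% of all genes above and 1.17% below). P4ha2 was then at 1.59 ± 0.83, Slc16a3 at 1.20 ± 1.05 and Bnip3 at 0.46 ± 0.29. E47KO replicate 2 was the highest of its group for P4ha2 and Bnip3, at 0.776 and 21.1 CPM, and it stayed in that fit. Over all alternatives, among them a fit without both libraries that stood apart, Bnip3 ranged from 0.18 to 1.81. Pdk1 ranged from −0.22 to 1.79. The comparison of E12KO with E12wt, that of the wild types and this difference all use the same E12wt libraries, so they are no separate evidence of one another.

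**Figure D4:**
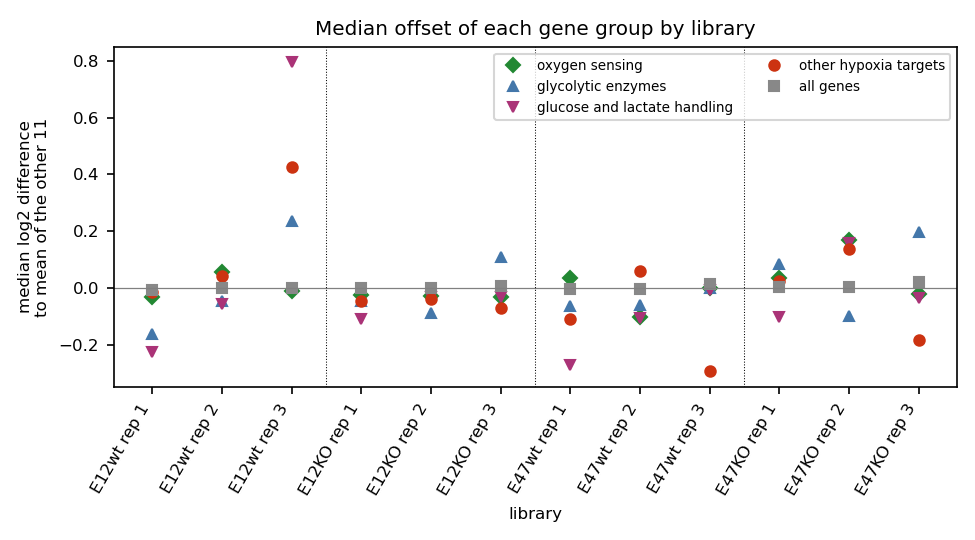
Median over the genes of each role, and over all 15277 genes, of the difference on the log2(CPM + 0.5) scale between 1 library and the mean of the other 11. In E12wt replicate 3 the glucose and lactate genes reach 0.79, the other hypoxia targets 0.42 and the enzymes 0.24, while oxygen sensing is at −0.01 and all genes are at 0.00.

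The libraries that stood apart did so in different ways. Against the mean of the other libraries of its group, E12wt replicate 3 was more than 0.5 higher on the log2 scale for 15 of 37 genes (4.32% of all genes) and lower by as much for 1, Epas1 (4.21%). E47KO replicate 2 was higher by more than 0.5 for 8 (16.6% of all genes) and lower for 10 (15.1%), and it was the lowest of all 12 for 12 genes and the highest for 7, where 29.8% and 29.5% of all genes were. Pdk1, Bnip3 and P4ha2 were high in both. Hk2, Pfkp, Pfkfb3, Vegfa, Ankrd37 and Ndrg1 were high in E12wt replicate 3 and low in E47KO replicate 2 by more than 0.5, and Epas1 was the reverse. Ddit4 went the same way as Epas1, at −0.48 in E12wt replicate 3 and 1.95 in E47KO replicate 2.

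**Figure D5:**
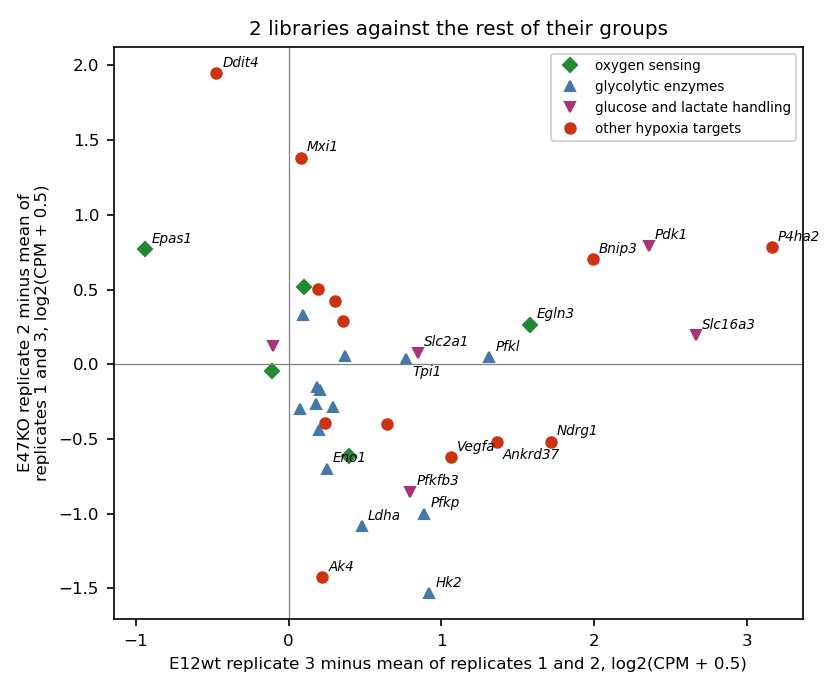
Each point is 1 of the 37 genes that passed the filter, by its difference from the rest of its group in E12wt replicate 3 (horizontal) and in E47KO replicate 2 (vertical), both on the log2(CPM + 0.5) scale, with shape and colour for the role. P4ha2, Slc16a3, Pdk1 and Bnip3 lie far to the right, Ddit4 at the top and Hk2 at the bottom.

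Other genes of the pathway, from lists that leave out the 38, gave no call either in any comparison. Of 7 tested HIF partners and regulators 1 was higher and 1 lower at an unadjusted p under 0.05 in E12KO, of 20 tested further hypoxia targets 2 and 2, and of 19 tested further glycolysis genes 1 and 0, where 4.29% of all genes were higher and 4.67% lower. In E47KO the counts were 0 in both directions for all 3 lists, against 1.13% and 1.06% (edgeR). In E12wt replicate 3, 8 of 21 further targets, 7 of 19 further glycolysis genes and 1 of 7 HIF partners and regulators were the highest of 12, against 11.6% of all genes. The medians of the difference from the rest of the group were 0.20, 0.06 and 0.00 on the log2 scale. Slc2a3, a high-affinity glucose transporter chosen for its values, was at 35.7 CPM there and at 12.2 to 16.2 CPM in the other 11. The most abundant members of these lists did not share the height: in E12wt, replicates 1 to 3, Arnt2, a partner of the hypoxia-inducible factors, was at 280, 303 and 264 CPM, Igfbp3, a binding protein for insulin-like growth factors, at 368, 399 and 310 CPM, and Pdha1, a subunit of pyruvate dehydrogenase, at 357, 372 and 310 CPM.

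Cell type markers moved in E12wt replicate 3 as well. The 8 markers of the oligodendrocyte lineage summed to 1427 CPM there against 1023 and 967 in the other E12wt libraries, and the 8 astrocyte markers to 733 against 968 and 1180. In E47wt replicate 3 the sums were close to these, at 1411 and 793 CPM, while Pdk1, at 6.33 CPM, and P4ha2, at 0.107 CPM, were the lowest of the 12 there and Bnip3 was at 13.0 CPM. The oligodendrocyte marker Olig2 was at 459 CPM in E12wt replicate 3, 437 in E47wt replicate 3 and 435 in E47KO replicate 3, and at 258 to 321 CPM in the other 9; Epas1 and Ddit4 were lower in these 3 libraries than in the other 9. In E47KO replicate 2 the astrocyte markers summed to 1526 CPM, the highest of the 12. The part of the marker genes in the height of the hypoxia targets was not tested beyond these values.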

How the data were processed

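Stranded mRNA libraries were sequenced, per the labels' protocols. The submitters' processing notes name STAR 2.5, the build mm9, DESeq2 and DESeq, with no annotation release. The authors deposited whole-number counts per gene for both strands, the sense strand and the opposite strand; the opposite strand held 97.1 to 97.2% of strand-assigned reads and was used. Their deposited comparison tables hold normalized signal, log2 fold changes, a score and p-values; a single factor for each library turns the both-strand counts into this signal. Rows that name no gene (unmapped, multimapping, no feature, ambiguous) stayed out of library sizes and tests.

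Counts were tested in R 4.3.3 with edgeR 4.0.16 (quasi-likelihood F test, low-count filter by group, TMM, two-sided p, Benjamini-Hochberg over all genes tested, called under 0.05), 6 libraries per comparison and all 12 for the difference of effects. Fold changes use a prior count of 0.125 and are given with SE. DESeq2 1.42.0, other scalings, no filter, both-strand counts, a sex term, the replicate number as a block and leaving out each library were alternatives. For the difference of effects, a fit without both libraries that stood apart was added after seeing the data. The fits were tested on simulated data. No pair of libraries agreed within sampling noise. Floors cover counting error only. RPKM values were computed here from CPM and the length of 1 transcript per gene of a GRCm38 annotation, which also gave names (36 of the 38 genes were named in the deposited tables too).

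The members and lists were chosen with earlier results of these data known. Values in every library are given for Hif1a, Epas1, Vegfa, Gapdh, Pgk1 and Pkm, for called genes, and in each role for up to 5 genes of widest log2 range with a mean of at least 1 CPM; other genes given this way were chosen after their values were seen. From each pathway list the most abundant genes are named where none was called. Same-numbered libraries of the E47 line deviated together from their group means in replicates 2 and 3 (correlations across genes of 0.23 and 0.45). This pairing comes from the data and not from a label. Replicate 1 gave 0.10, less than the 0.15 of E47wt replicate 1 with E47KO replicate 2. Those of the E12 line did not deviate together (0.09, 0.06 and −0.01). Same-numbered wild types of the 2 lines gave 0.05, 0.26 and 0.28.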

Additional observations from a re-analysis of the deposited data

How the results depend on the processing

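Under every alternative run, 0 listed genes were called in each of the 4 comparisons, and leaving out each library in turn also left 0. The median log2 fold change of the listed genes ranged from −0.18 to 0.01 in E12KO, from 0.07 to 0.14 in E47KO and from −0.19 to −0.02 between the wild types when single libraries were left out. For the difference of the knockout effects it ranged from 0.018, without E12wt replicate 3, to 0.24. The cause was not tested. With the replicate number as a block the medians were −0.09, 0.08, −0.12 and 0.13, and the pairing changed no call. The count of 33 of 37 genes highest in E12wt replicate 3 was also 33 with median-of-ratios scaling, library totals, both-strand counts and no filter. These alternatives, and the spread of each role without the libraries that stood apart, were chosen after seeing the data. Leaving out a library leaves 2 in its group. The fewest reads over the 12 libraries were 16 for Car9, 256 for Slc16a3, 454 for P4ha2, 911 for Adm and 960 for Ankrd37.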
